A study of Homo sapiens with 6 samples.

Results

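The transcripts of 10 genes that mark or control the epithelial and mesenchymal states, CDH1, CDH3, CDH17, CTNNB1, EPCAM, VIM, ZEB1, SNAI2, ESRP1 and GRHL2, were followed in HT-29 cells after knockdown (KD) of the lncRNA HOXA-AS3 or the lncRNA HOXB-AS3. The 10 genes were found by their Entrez identifiers among the 27434 rows of each gene table, and each had a row of its own. Of the 10, 8 were among the 13034 genes with enough reads to be tested, and VIM and SNAI2 were not.

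HT-29 is an established human colorectal cancer cell line, and all groups were the same line, for which the labels name no engineered allele. Cells were transfected for 48 h with pooled siRNAs that target HOXA-AS3 (siHOXA-AS3) or HOXB-AS3 (siHOXB-AS3), or with non-targeting siRNAs (siNT), and polyadenylated RNA was sequenced from 2 libraries per group, 6 in all. The labels give 10 nM for each pool, whereas the methods of the study give a higher dose. Nothing states that the libraries of a group came from separate cultures, so p-values measure the spread between these libraries, which may be technical.

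The siRNAs are the perturbation that all comparisons rest on, so their strands are printed here. Each strand has the sense of the lncRNA, is written 5′ to 3′, and has in capitals the 7 bases that pair with the seed (bases 2 to 8) of the opposite, guide strand. The HOXA-AS3 pool was listed as 5 strands that made 4 distinct sequences, and the HOXB-AS3 pool held 3 duplexes whose strands end in a 2-base overhang.
HOXA-AS3 siRNA 1: gagacagaauaGCGAACAa
HOXA-AS3 siRNA 2: caauggaagggCCGAACAa
HOXA-AS3 siRNA 3: aggaaaggacaGCGAAGCu
HOXA-AS3 siRNA 4: guagacagggcACUCGUUa
HOXB-AS3 siRNA 1: cgacaaagggaGACAAAGuuu
HOXB-AS3 siRNA 2: gagucgggcauGAAAGAAauu
HOXB-AS3 siRNA 3: gucaaggggugAAGGGAAauu
Matched to the GENCODE transcripts on GRCh38, the HOXA-AS3 strands lay in exons of HOXA-AS3 on the plus strand at chr7:27155847-27155865, chr7:27152656-27152674, chr7:27154078-27154096 and chr7:27155265-27155283. The HOXB-AS3 strands lay in exons of HOXB-AS3, also on the plus strand, at chr17:48590450-48590468, chr17:48600494-48600512 and chr17:48590467-48590485. A HOXA-AS3 strand was found in 1 to 4 of the 5 annotated HOXA-AS3 transcripts, and a HOXB-AS3 strand in 2 to 8 of the 15 annotated HOXB-AS3 transcripts.

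Epithelial cells are held together at adherens junctions by cadherins, transmembrane proteins whose extracellular domains bind cadherins of the neighbouring cell and whose tails bind catenins that connect to actin. E-cadherin (CDH1) is the main cadherin of the intestinal epithelium, and its loss, with a gain of vimentin and of N-cadherin, is the classical sign of the epithelial-mesenchymal transition (EMT). Transcription factors of the ZEB, SNAI and TWIST families repress CDH1 during EMT, whereas GRHL2 and the splicing regulator ESRP1 maintain the epithelial state, and many colorectal cancer lines lie between these states.

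The libraries held 15998518 to 26263938 counts. The SD of the log2 difference between the 2 libraries of a group, over all genes tested, was 0.73 in siHOXA-AS3, 0.43 in siNT and 0.37 in siHOXB-AS3. In siHOXA-AS3 this difference followed the GC content of the genes (Pearson r = 0.76 across genes, which are not independent replicates), against -0.42 in siNT and 0.15 in siHOXB-AS3. HOXA-AS3 had 38 and 18 counts in siNT and 12 in each siHOXA-AS3 library, a log2 fold change of -1.09 ± 0.40 (SE) with an edgeR adjusted p of 0.711. HOXB-AS3 had 303 and 213 counts in siNT and 67 and 76 in siHOXB-AS3, a log2 fold change of -1.96 ± 0.25 (SE) with an adjusted p of 0.0678 by edgeR and of 5.12e-07 by DESeq2. The strand setting used in counting is not given in the sources used here, so reads of these antisense lncRNAs and of the HOX genes they overlap cannot be told apart with certainty.

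In the siNT cells the epithelial genes made up nearly all of the summed level of the 10 genes. EPCAM, an epithelial adhesion molecule and a common carcinoma marker, was the highest at 408 ± 21.3 TPM (mean ± SD, n = 2), followed by CDH1 at 258 ± 14.4 TPM and ESRP1 at 203 ± 13.5 TPM. CTNNB1, which encodes β-catenin, the partner of cadherin tails and the effector of Wnt signalling, stood at 41.8 ± 1.53 TPM, and GRHL2, a grainyhead transcription factor of epithelia, at 24.4 ± 1.10 TPM. CDH17, the liver-intestine cadherin, had 9.71 ± 1.00 TPM and CDH3, the placental cadherin, 7.42 ± 0.693 TPM. Each of these 7 genes had non-overlapping library ranges with its neighbours in this order. TPM, as RSEM gives it, is scaled for library size and transcript length, so these levels can be compared between genes.

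The mesenchymal genes were at or near 0 in all groups. ZEB1, an E-box repressor of CDH1, had 0.32 and 0.08 TPM in siNT, 0.35 and 0.34 TPM in siHOXA-AS3, and 0.25 and 0.18 TPM in siHOXB-AS3. VIM, the intermediate filament gene of mesenchymal cells, had 22 counts over the 6 libraries together and reached at most 0.24 TPM. SNAI2, which encodes the EMT factor Slug, had 0 counts in every library, where 3 counts in a library would correspond to 0.0841 to 0.133 TPM. The library ranges of ZEB1 and VIM overlapped in siNT, so their order there could not be set. No change of VIM or SNAI2 was detectable at this depth.

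**Figure D1:**
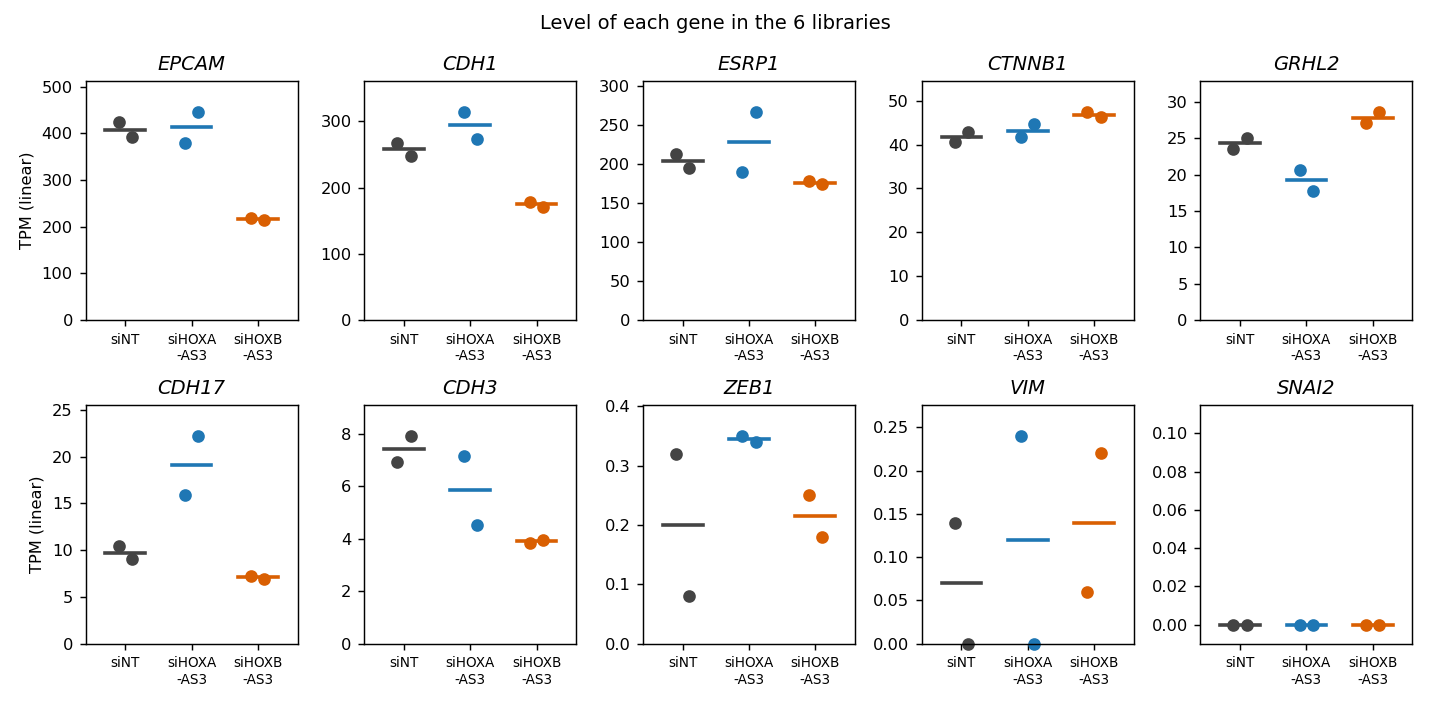
Level of each of the 10 genes in TPM (linear axis, a different scale in each panel) in siNT, siHOXA-AS3 and siHOXB-AS3 cells, where points are the 2 libraries of a group and lines are group means. EPCAM and CDH1 sit lower in both siHOXB-AS3 libraries (215 to 219 and 171 to 179 TPM) than in the other 4, CDH17 sits highest in siHOXA-AS3 (15.9 to 22.2 TPM), and ZEB1, VIM and SNAI2 stay below 1 TPM throughout.

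The first comparison asked how the levels of these genes after KD of HOXB-AS3 differed from those in the non-targeting control. EPCAM, CDH1 and CDH3 were lower in the siHOXB-AS3 libraries than in either control library, with differences of -0.46 to -0.84 on the log2 scale, whereas CTNNB1 and GRHL2 were slightly higher and ESRP1 was close to its control level. None of the 8 genes tested passed an adjusted p of 0.05 by edgeR's quasi-likelihood test, in a comparison in which 0.0614% of all genes tested passed (8 of 13034). By DESeq2, EPCAM passed, against 2.89% of the genes given an adjusted p there. In bulk RNA, fewer cells of a type and less RNA per cell cannot be told apart.

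EPCAM had 423 and 392 TPM in siNT and 219 and 215 TPM in siHOXB-AS3. Both siHOXB-AS3 libraries were far below both controls, and the libraries within each group were close to each other. The log2 fold change was -0.81 ± 0.14 (SE; 95% interval -1.14 to -0.48), with an adjusted p of 0.101 by edgeR and of 0.0106 by DESeq2. The edgeR call depended on the fit, and the siHOXA-AS3 libraries entered the common estimate of the spread. In a fit without the siHOXA-AS3 libraries the log2 fold change was -0.82 with an edgeR adjusted p of 8.88e-07. With the GC trend removed it was -0.79 with an edgeR adjusted p of 0.00115. Those fits called 2995 of 12830 and 1903 of 12622 genes, against 8 of 13034 without either change.

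CDH1 had 268 and 248 TPM in siNT and 179 and 171 TPM in siHOXB-AS3. The groups did not overlap, and the gap between them exceeded the gap between libraries of either group. Its log2 fold change was -0.46 ± 0.15 (SE; 95% interval -0.82 to -0.10), with an adjusted p of 0.281 by edgeR and 0.379 by DESeq2. In a fit without the siHOXA-AS3 libraries, the edgeR adjusted p was 0.000477, where 2995 of all 12830 genes tested passed.

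CDH3 had 6.93 and 7.91 TPM in siNT and 3.84 and 3.96 TPM in siHOXB-AS3, again without overlap. Its log2 fold change was -0.84 ± 0.29 (SE; 95% interval -1.52 to -0.16), similar in size to that of EPCAM but less precise at this lower level, with an adjusted p of 0.297 by edgeR and 0.149 by DESeq2. In a fit without the siHOXA-AS3 libraries, the edgeR adjusted p was 0.000706, where 2995 of all 12830 genes tested passed. CDH17, the remaining cadherin of the group, had 10.4 and 9.0 TPM in siNT and 7.20 and 6.96 TPM in siHOXB-AS3. Its log2 fold change was -0.36 ± 0.21 (SE) with an edgeR adjusted p of 0.561.

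The genes that regulate the state or transmit the cadherin signal differed less. CTNNB1 had 40.7 and 42.8 TPM in siNT and 47.4 and 46.3 TPM in siHOXB-AS3, a log2 fold change of 0.25 with a 95% interval of -0.12 to 0.62. GRHL2 had 23.6 and 25.1 TPM in siNT and 27.1 and 28.6 TPM in siHOXB-AS3, a log2 fold change of 0.28 with an interval of -0.14 to 0.71. ESRP1 had 213 and 194 TPM against 178 and 174 TPM, and its log2 fold change of -0.11 had an interval of -0.52 to 0.29. These intervals included 0 for all 3 genes, although none of the 3 had overlapping libraries. ZEB1 gave 0.15 with an interval of -1.27 to 1.58, which covers changes of more than 2 fold in either direction.

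In all, 3 of the 8 genes tested (CDH1, CDH3 and EPCAM) had an unadjusted p below 0.05, where 12.2% of all genes tested did. The siNT and siHOXB-AS3 libraries did not overlap for 7 of the 8 genes, 5 lower and 2 higher, but they did not overlap for 61.8% of all genes tested either. The median log2 fold change was -0.24 over the 8 genes and -0.00564 over all genes tested. An exact permutation test of a single gene with 2 libraries against 2 cannot give a two-sided p below 0.333.

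The order of the levels shifted with these values. In siHOXB-AS3 cells EPCAM remained the highest at 217 TPM, but CDH1 and ESRP1, at 175 and 176 TPM, had overlapping libraries, whereas CDH1 was above ESRP1 in every siNT and siHOXA-AS3 library. CDH1 supplied 94.2% and 94.0% of the summed TPM of CDH1, CDH3 and CDH17 in the siHOXB-AS3 libraries and 93.9% and 93.6% in the siNT libraries. The summed TPM of these 3 cadherins was 285 and 265 in siNT and 190 and 182 in siHOXB-AS3. The sum was lower in both siHOXB-AS3 libraries, and the share of CDH1 in it differed by less than 1 percentage point among these 4 libraries.

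The second comparison asked the same of KD of HOXA-AS3. Here the intestinal cadherin CDH17 stood out with a level 1.95 times that of the control, and EPCAM, CDH1, CTNNB1 and ESRP1 were close to the control. None of the 8 genes tested passed an adjusted p of 0.05 by edgeR, nor did any of the 13034 genes tested (0%). By DESeq2 1 of the 8, CDH17, passed, against 0.415% of the genes given an adjusted p. This comparison and the previous one use the same siNT libraries.

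CDH17 had 10.4 and 9.0 TPM in siNT and 15.9 and 22.2 TPM in siHOXA-AS3. Both KD libraries were above both controls, but they differed from each other more than the controls did. The log2 fold change was 0.96 ± 0.21 (SE; 95% interval 0.47 to 1.45), with an adjusted p of 0.484 by edgeR and 0.0419 by DESeq2. Without siHOXA-AS3 replicate 1 the log2 fold change was 1.14 (edgeR adjusted p of 2.32e-05), and without siHOXA-AS3 replicate 2 it was 0.76 (edgeR adjusted p of 0.00154), the single remaining library being assumed to vary like the other groups. With the GC trend removed it was 0.94 with an edgeR adjusted p of 0.00374, where 549 of all 12622 genes tested passed.

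The other epithelial genes of high level lay near their controls. EPCAM had 380 and 445 TPM in siHOXA-AS3, on either side of its controls, and its log2 fold change was 0.005 with a 95% interval of -0.32 to 0.33. CDH1 had 314 and 274 TPM, both above the controls, with a log2 fold change of 0.18 (interval -0.17 to 0.54). Both intervals included 0. ESRP1 had 189 and 266 TPM, on either side of its controls, with a log2 fold change of 0.15 (interval -0.25 to 0.56). CTNNB1 had 41.8 and 44.6 TPM, overlapping the controls, with a log2 fold change of 0.03 (interval -0.34 to 0.39). The intervals of ESRP1 and CTNNB1 included 0 as well.

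GRHL2 had 20.7 and 17.8 TPM in siHOXA-AS3, both below the controls, with a log2 fold change of -0.34 and a 95% interval of -0.77 to 0.09. CDH3 had 7.16 and 4.53 TPM, with a log2 fold change of -0.34 and an interval of -1.01 to 0.33. A single library decided the CDH3 value, which was -0.75 without siHOXA-AS3 replicate 1 and -0.01 without siHOXA-AS3 replicate 2. ZEB1 had 35 and 22 counts in siHOXA-AS3 and 33 and 5 in siNT, and its log2 fold change of 0.75 had an interval of -0.64 to 2.14.

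The libraries of siNT and siHOXA-AS3 did not overlap for 4 of the 8 genes (CDH1, CDH17 and ZEB1 higher and GRHL2 lower), against 28.6% of all genes tested. An unadjusted p below 0.05 was found for 1 of the 8, CDH17, against 6.16% of all genes tested. The median log2 fold change was 0.09 over the 8 genes and 0.00888 over all genes tested.

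The difference between the siHOXA-AS3 libraries moved with GC content among these genes as well. On the log2 scale, replicate 2 minus replicate 1 was -0.73 for CDH3, whose transcript has 55.5% GC, -0.28 for CDH1 (50.1%) and -0.31 for GRHL2 (49.9%). It was 0.14 for EPCAM (47.1%), 0.03 for CTNNB1 (46.3%), 0.40 for CDH17 (45.5%) and 0.40 for ESRP1 (42.6%). Thus the genes of higher GC were lower in replicate 2 and most of those of lower GC were higher, apart from ZEB1, which differed by -0.18 at 42.4% GC on few counts. The siHOXB-AS3 libraries differed by at most 0.08 for these 7 genes other than ZEB1. The part of this library difference in the siHOXA-AS3 values was examined only through the fits without a library and with the GC trend removed.

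**Figure D2:**
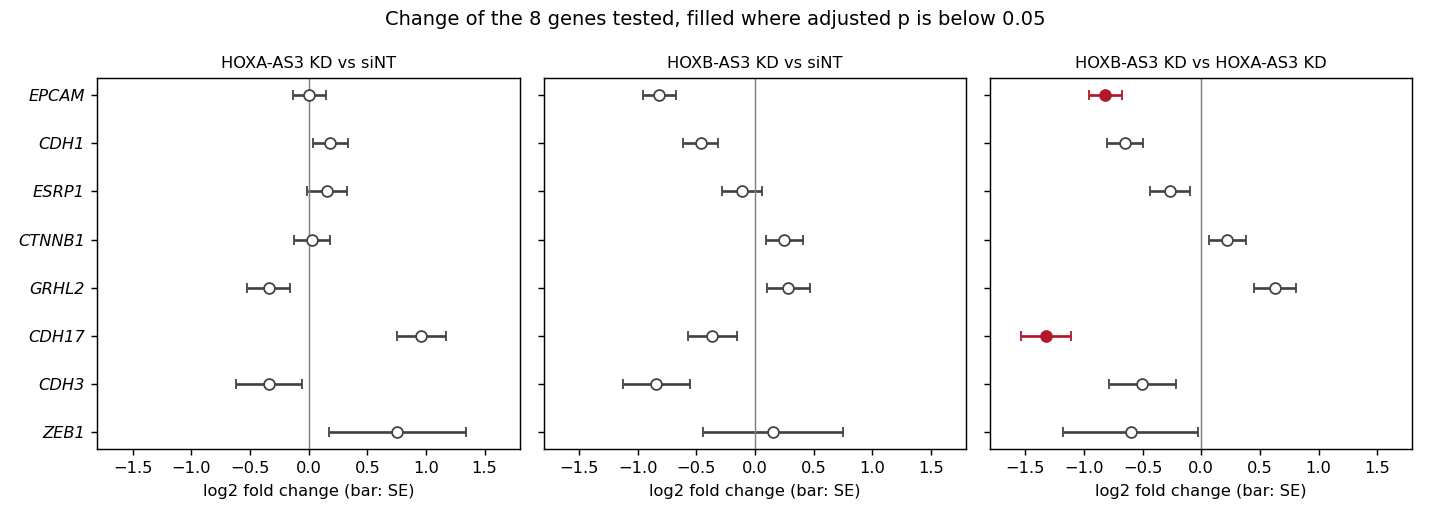
Log2 fold change (points) with its SE (bars) for the 8 genes tested in the 3 comparisons, from edgeR's quasi-likelihood fit to all 6 libraries, where filled points have an adjusted p below 0.05. Only EPCAM (-0.82) and CDH17 (-1.32) are filled, both in the comparison of the KDs with each other, and ZEB1 has the widest bars.

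The third comparison set the KDs against each other, and asked whether the levels of these genes differed between siHOXB-AS3 and siHOXA-AS3 cells. CDH17 and EPCAM were lower after HOXB-AS3 KD than after HOXA-AS3 KD, with 0.40 and 0.57 times the level, and these were the 2 of the 8 genes tested that passed an adjusted p of 0.05 by edgeR. Over all genes 1.57% passed (204 of 13034), and 0.936% passed and were lower in siHOXB-AS3. By DESeq2, 3 of the 8 genes passed (CDH1, CDH17 and EPCAM), against 6.45% of the genes given an adjusted p.

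CDH17 fell from 15.9 and 22.2 TPM in siHOXA-AS3 to 7.20 and 6.96 TPM in siHOXB-AS3. This was a log2 fold change of -1.32 ± 0.21 (SE; 95% interval -1.82 to -0.83), with an adjusted p of 0.041 by edgeR and 3.03e-05 by DESeq2. The siNT libraries, at 10.4 and 9.0 TPM, lay between those of the KDs. The edgeR call held without either siHOXA-AS3 library (adjusted p of 1.3e-07 and 5.29e-06) and was lost without siNT replicate 1 (0.143), siNT replicate 2 (0.139), siHOXB-AS3 replicate 1 (0.428) or siHOXB-AS3 replicate 2 (0.538), while the log2 fold change stayed between -1.5 and -1.12.

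EPCAM fell from 380 and 445 TPM in siHOXA-AS3 to 219 and 215 TPM in siHOXB-AS3. This was a log2 fold change of -0.82 ± 0.14 (SE; 95% interval -1.15 to -0.49), with an adjusted p of 0.0471 by edgeR and 0.00406 by DESeq2. The siNT libraries, at 423 and 392 TPM, lay between the siHOXA-AS3 libraries. The call held without either siHOXA-AS3 library and was lost without siNT replicate 1 (edgeR adjusted p of 0.184), siNT replicate 2 (0.19), siHOXB-AS3 replicate 1 (0.469) or siHOXB-AS3 replicate 2 (0.613), while the log2 fold change stayed between -0.88 and -0.76.

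CDH1 was also lower in siHOXB-AS3, at 179 and 171 TPM against 314 and 274 TPM, with a log2 fold change of -0.65 ± 0.15 (SE) whose adjusted p was 0.0919 by edgeR and 0.0441 by DESeq2. GRHL2 was higher in siHOXB-AS3, at 27.1 and 28.6 TPM against 20.7 and 17.8 TPM, with a log2 fold change of 0.63 ± 0.18 (SE) whose adjusted p was 0.136 by edgeR and 0.0928 by DESeq2. CDH3 gave -0.50, ESRP1 -0.27, CTNNB1 0.22 and ZEB1 -0.60 on the log2 scale, and the 95% interval of each included 0. An unadjusted p below 0.05 was found for 4 of the 8 genes (CDH1, CDH17, EPCAM and GRHL2), against 18.4% of all genes tested, and the libraries did not overlap for all 8, against 45.3%. The median log2 fold change was -0.55 over the 8 genes and -0.0111 over all genes tested.

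The ratio of CDH17 to CDH3 in TPM was 2.22 and 4.90 in siHOXA-AS3, and so was above that of the other libraries but uneven between replicates. It was 1.5 and 1.14 in siNT and 1.88 and 1.76 in siHOXB-AS3. In siHOXA-AS3 cells CDH17 reached 19.1 TPM on average, overlapping the libraries of GRHL2 at 19.2 TPM, whereas it lay below GRHL2 in every library of the other groups.

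**Figure D3:**
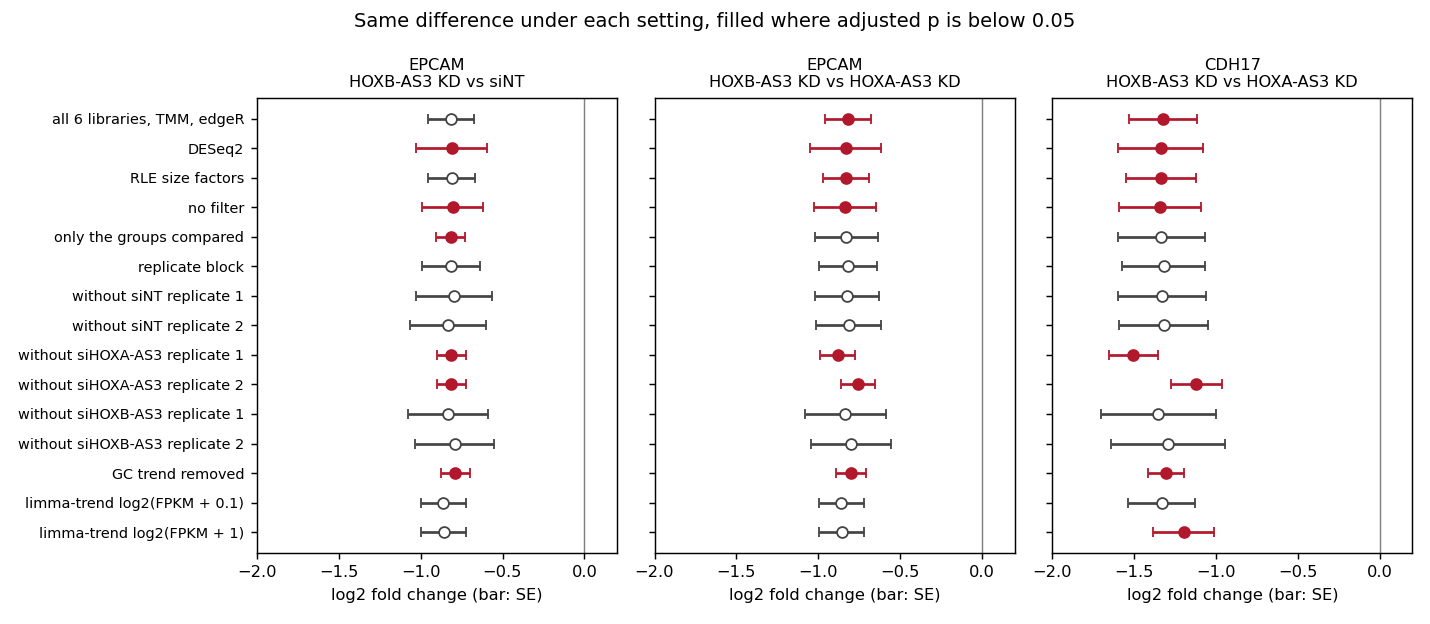
Log2 fold change (points) with its SE (bars) under each way of fitting the data, for EPCAM after HOXB-AS3 KD against siNT (left), EPCAM between the KDs (middle) and CDH17 between the KDs (right), where filled points have an adjusted p below 0.05. In these 3 panels the points lie below 0 in every row, between -0.86 and -0.79 for EPCAM against siNT, whereas the filling, that is the call, comes and goes with the libraries and the model.

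Because a pool of siRNAs can also pair with other transcripts through the guide seed, the longest annotated 3′ UTR of each gene (GENCODE, GRCh38) was searched for the 7 capital bases printed above. A match to a seed of the HOXB-AS3 pool was found once each in EPCAM, ZEB1, ESRP1 and GRHL2, and none was found in CDH1, CDH3, CDH17, CTNNB1, VIM or SNAI2. Of 11004 genes tested with a 3′ UTR, 41% held such a match. For the HOXA-AS3 pool only GRHL2 held a match, against 5.62% of the 11004 genes. The match in EPCAM is shown because EPCAM had the lowest adjusted p of the 8 genes against siNT after HOXB-AS3 KD; it begins 25 bases after the stop codon, lies on the plus strand at chr2:47386632-47386652 with 7 bases on each side, and pairs with the seed of HOXB-AS3 siRNA 3.
EPCAM 3′ UTR: auagaagAAGGGAAauagcaa
On the log2 scale after HOXB-AS3 KD, the genes with a match gave -0.81 (EPCAM), -0.11 (ESRP1), 0.15 (ZEB1) and 0.28 (GRHL2). Those tested without a match gave -0.46 (CDH1), -0.84 (CDH3), -0.36 (CDH17) and 0.25 (CTNNB1). Whether seed pairing had a part in any of these values was not tested. A match of letters is a description and not a shown site of action.

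The 10 genes were set beside 179 other genes in 9 lists of cadherins, junction proteins, epithelial and mesenchymal genes, TGF-beta signalling and cell type markers. Of these 179, 103 were tested and 35 had 0 counts in every library. After HOXB-AS3 KD 1 of the 103 passed by edgeR, against 0.0614% of all genes tested. An unadjusted p below 0.05 was found for 16 (15.5%, against 12.2%), of which 13 were lower. After HOXA-AS3 KD none passed by edgeR (0% of all genes did), and 5 (4.85%, against 6.16%) had an unadjusted p below 0.05. By DESeq2 1 passed there, against 0.415% of the genes given an adjusted p. Between the KDs 3 passed by edgeR, against 1.57% of all genes tested. Of the 103, 30 (29.1%, against 18.4%) had an unadjusted p below 0.05 there, of which 22 were lower in siHOXB-AS3. Directions at this unadjusted p were not counted over all genes, so the shares that were lower cannot be set beside a background.

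Among the other cadherins, 32 of 40 were below 1 TPM in every library and 14 were at 0, including N-cadherin (CDH2). Of the 10 tested, 2 passed an unadjusted p of 0.05 after HOXB-AS3 KD, both lower, against 12.2% of all genes tested. The median log2 fold change was -0.47, beside -0.00564 for all genes. CDHR5, a protocadherin of the intestinal brush border, had 7.68 and 7.66 TPM in siNT, 23.2 and 11.6 TPM in siHOXA-AS3 and 4.04 and 3.90 TPM in siHOXB-AS3. Like CDH17 it was above its controls in both siHOXA-AS3 libraries and below them in both siHOXB-AS3 libraries, with log2 fold changes of 1.18 and -0.86. The first of these was 0.52 without siHOXA-AS3 replicate 1 and 1.64 without siHOXA-AS3 replicate 2. Between the KDs its log2 fold change was -2.05 with an adjusted p of 0.0514 by edgeR and 2.47e-07 by DESeq2. CDH24 had a mean of 1.64 TPM in siHOXB-AS3 and 2.82 TPM in siNT, a log2 fold change of -0.68 with an edgeR adjusted p of 0.547.

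Among the adherens junction partners, which include the catenins and nectins, 19 genes were tested. None passed by edgeR in any comparison, against at most 1.57% of all genes tested. The median log2 fold change of the partners was 0.02 after HOXA-AS3 KD, 0.00 after HOXB-AS3 KD and -0.02 between the KDs. These values were close to the median of all genes. The summed TPM of the partners was 1310 to 1420 in the 6 libraries. NECTIN4, a nectin that binds across cells, had the largest difference after HOXB-AS3 KD, from 4.96 to 2.48 TPM on average (log2 fold change -0.90, edgeR adjusted p of 0.307). CTNNAL1, a relative of α-catenin, had the largest in the other direction, from 18.1 to 27.4 TPM (0.69, edgeR adjusted p of 0.548). After HOXA-AS3 KD the genes named by size were CTNNBIP1, an inhibitor of the binding of β-catenin to TCF factors, with 0.29, and CTNND1, which encodes p120-catenin, with -0.21. The row of CTNND1 joins it to TMX2 and a readthrough transcript, so its value is uncertain.

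The desmosome list had no gene passing by edgeR among 10 tested, where at most 1.57% of all genes tested passed in any comparison. PERP, a tetraspan protein of desmosomes, had 74.3 and 73.1 TPM in siNT and 115 and 102 TPM in siHOXA-AS3, a log2 fold change of 0.56 with an edgeR adjusted p of 0.614. DSP, the desmoplakin gene, gave -0.33 after HOXB-AS3 KD, and DSG2, a desmosomal cadherin, gave 0.30. All 26 genes of the epithelial programme were tested and none passed by edgeR in any comparison, against at most 1.57% of all genes. Of the 26, 15 had non-overlapping libraries after HOXB-AS3 KD, 7 higher and 8 lower, where 61.8% of all genes tested did. The list median log2 fold change was 0.05. TMPRSS4, a membrane serine protease, went from a mean of 47.3 TPM in siNT to 25.1 TPM in siHOXB-AS3 (log2 fold change -0.82, edgeR adjusted p of 0.237), and LAD1, a basement membrane filament protein, from 43.5 to 24.0 TPM (-0.77, edgeR adjusted p of 0.281). After HOXA-AS3 KD, ELF3 and OVOL1, both transcription factors of epithelial cells, gave -0.68 and -0.56 with edgeR adjusted p-values of 0.736 and 0.857. Without siHOXA-AS3 replicate 1 these values were -1.09 and -0.89, and without siHOXA-AS3 replicate 2 they were -0.35 and -0.29. Genes of this list thus lay on both sides of their controls after either KD.

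Of 13 EMT transcription factors 6 had 0 counts in every library, including TWIST1 and ZEB2, and 5 were tested. SOX9, a factor of intestinal crypt progenitors that was listed for its part in EMT, had 64.2 and 55.8 TPM in siNT, 71.8 and 66.0 TPM in siHOXA-AS3 and 39.6 and 38.9 TPM in siHOXB-AS3. Its log2 fold change was 0.20 after HOXA-AS3 KD and -0.52 after HOXB-AS3 KD, and between the KDs the adjusted p was 0.083 by edgeR and 0.0225 by DESeq2. TCF3, which encodes the E2A factors, gave -0.76 after HOXB-AS3 KD with an edgeR adjusted p of 0.416. The others tested went both ways after HOXB-AS3 KD. SNAI1 gave 0.57, FOXC1 0.14 and KLF8 -0.96, with edgeR adjusted p-values of 0.681, 0.895 and 0.257. Of 32 mesenchymal genes 24 were below 1 TPM in every library and 11 were at 0. Most of the summed TPM of this list came from S100A4, at 895 to 1860 TPM, a calcium-binding protein that many carcinoma lines also express.

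NT5E, the ecto-nucleotidase CD73, was the mesenchymal list gene that passed by edgeR. It had 46.0 and 45.7 TPM in siNT, 42.7 and 64.6 TPM in siHOXA-AS3 and 21.2 and 19.3 TPM in siHOXB-AS3. The siHOXB-AS3 libraries were the lowest of the 6, with a log2 fold change of -1.30 against siHOXA-AS3 (adjusted p of 0.0434 by edgeR) and of -1.09 against siNT (0.114 by edgeR and 0.00183 by DESeq2). TGFBI, an extracellular matrix protein, gave -0.54 after HOXA-AS3 KD with an edgeR adjusted p of 0.736, and -0.78 and -0.33 without siHOXA-AS3 replicate 1 and replicate 2.

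In the TGF-beta pathway, a main inducer of EMT, 1 of the 15 genes tested, the ligand TGFB2, passed by edgeR between the KDs. Of all genes tested, 1.57% passed there. TGFB1 had 19.6 and 20.8 TPM in siNT, 58.4 and 37.2 TPM in siHOXA-AS3 and 15.7 and 15.4 TPM in siHOXB-AS3. It was above its controls in both siHOXA-AS3 libraries, with a log2 fold change of 1.25 whose adjusted p was 0.484 by edgeR and 0.00419 by DESeq2. The log2 fold change was 0.83 without siHOXA-AS3 replicate 1 and 1.58 without siHOXA-AS3 replicate 2. Between the KDs the adjusted p was 0.0504 by edgeR and 5.51e-06 by DESeq2. The row of TGFB2, which also holds the reads of TGFB2-OT1, had 1.9 and 1.6 TPM in siNT, 1.35 and 1.67 TPM in siHOXA-AS3 and 3.31 and 4.08 TPM in siHOXB-AS3. The siHOXB-AS3 libraries were the highest of the 6, with a log2 fold change of 1.39 against siHOXA-AS3 (adjusted p of 0.0459 by edgeR) and 1.17 against siNT (0.114 by edgeR and 0.00873 by DESeq2). SKI, a repressor of SMAD signalling, gave -0.37 after HOXA-AS3 KD and -0.69 after HOXB-AS3 KD, with edgeR adjusted p-values of 0.851 and 0.18. Of the 15 genes of the pathway tested, 2 passed an unadjusted p of 0.05 after HOXB-AS3 KD, TGFB2 higher and SKI lower. Of all genes tested 12.2% passed it, so this count is near the share of all genes.

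**Figure D4:**
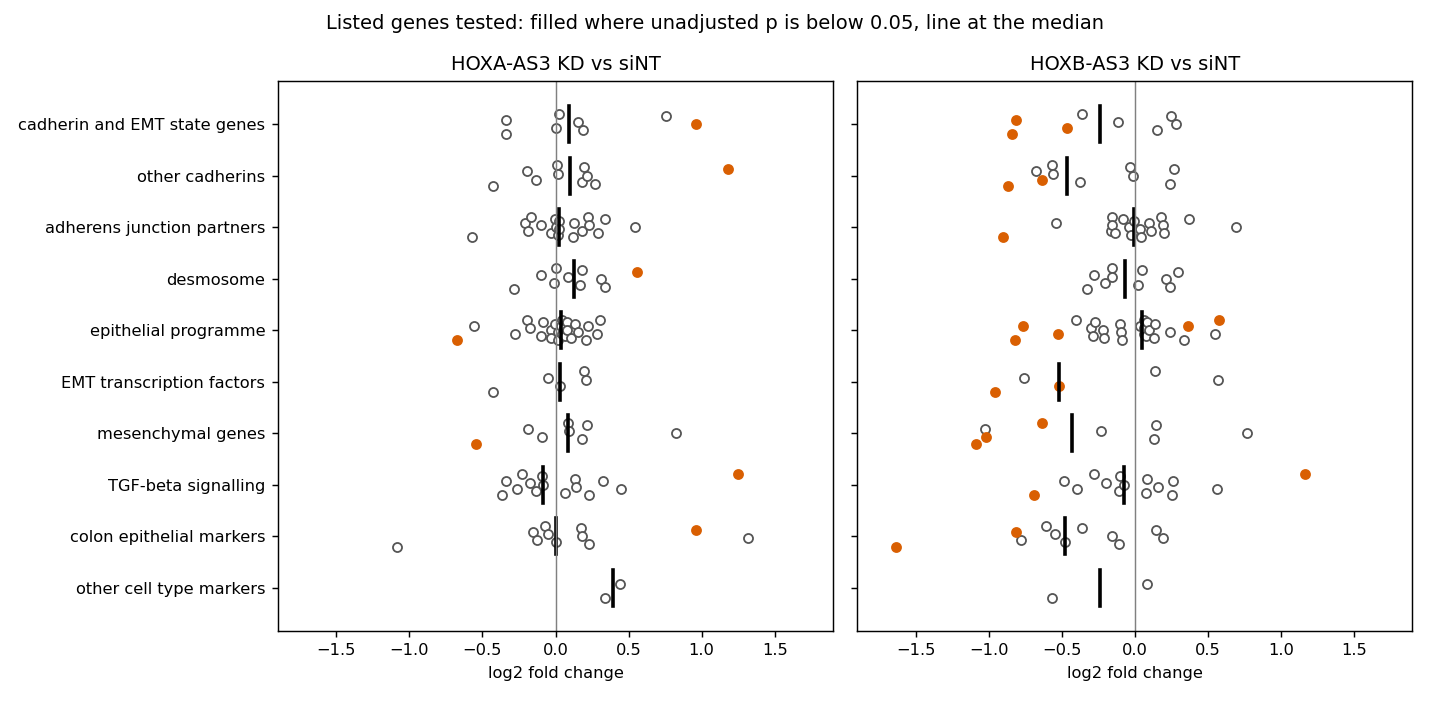
Log2 fold change of each gene tested in the cadherin and EMT state group and in the 9 other lists, after HOXA-AS3 KD (left) and HOXB-AS3 KD (right), where each point is a gene, filled points have an unadjusted p below 0.05 and vertical lines are list medians. The medians lie between -0.09 and 0.39 on the left, the latter from 2 genes, and between -0.52 and 0.05 on the right. On the right, EMT transcription factors (-0.52), colon epithelial markers (-0.48), other cadherins (-0.47) and mesenchymal genes (-0.43) lie lowest. These lists hold 5, 11, 10 and 8 genes tested, and each has genes on both sides of 0.

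The libraries carried the markers of colonic epithelium. LGALS4 was at 1050 to 2480 TPM, KRT8 at 384 to 724 TPM, KRT20 at 302 to 460 TPM and VIL1 at 27.2 to 44.7 TPM, whereas CDX2 (0.14 to 0.50 TPM) and GPA33 (0.07 to 0.85 TPM) were near 0. CEACAM5, the carcinoembryonic antigen, was the 1 gene of the 9 lists that passed by edgeR against siNT after HOXB-AS3 KD. It had 140 and 131 TPM in siNT, 134 and 120 TPM in siHOXA-AS3 and 41.1 and 39.4 TPM in siHOXB-AS3, and its log2 fold change was -1.63 ± 0.15 (SE) against siNT with an edgeR adjusted p of 0.0492. This call was lost without siNT replicate 1 (edgeR adjusted p of 0.573), siNT replicate 2 (0.439), siHOXB-AS3 replicate 1 (0.479) or siHOXB-AS3 replicate 2 (1.0), while the log2 fold change stayed between -1.68 and -1.58. CEACAM5, EPCAM and CDH17 were the colon marker genes that passed between the KDs. After HOXB-AS3 KD 7 of the 11 colon markers, which include EPCAM and CDH17, were lower and 2 higher without overlap with siNT. The libraries did not overlap for 61.8% of all genes tested either. The list median was -0.48, beside -0.00564 for all genes tested. LGALS4 gave -0.48 and KRT19 -0.61, with edgeR adjusted p-values of 0.505 and 0.411, whereas KRT18 gave 0.14. The summed TPM of the 11, of which KRT18 made up 3090 and 3410 TPM in siHOXB-AS3, was 5850 and 5870 there and 5710 to 8030 in the other 4 libraries. Of 15 markers of leukocytes, endothelium, fibroblasts and muscle, 13 were below 1 TPM in every library, 4 of them at 0 throughout, and the summed TPM was 17.6 and 15.8 in siNT, 24.8 and 17.7 in siHOXA-AS3 and 17.7 and 14.7 in siHOXB-AS3. Most of this was CD68, at 13.7 to 22.1 TPM, and CD14 gave -0.56 after HOXB-AS3 KD with an edgeR adjusted p of 0.666.

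The genes whose levels followed CDH1 most closely over the 6 libraries were BEND3 (Pearson r = 0.9965 on log2 CPM), SCAMP5 (0.9955) and ABCC3 (0.9954). ABCC3, an efflux transporter, had 140 and 149 TPM in siNT, 252 and 132 TPM in siHOXA-AS3 and 82.2 and 73.3 TPM in siHOXB-AS3, and BEND3 and SCAMP5 were below 2 TPM in every library. These values are a description over 6 libraries that share groups, depth and base composition, and 585 of the genes tested had an r above 0.9 with CDH1.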

How the data were processed

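RNA of 6 HT-29 libraries (2 siNT, 2 siHOXA-AS3 and 2 siHOXB-AS3 libraries) was quantified by the authors with RSEM on RefSeq genes. The submitters' processing notes name hg19, while no aligner, strand setting or tool version is given in these sources. The deposited tables give expected counts, TPM and FPKM per gene, the expected count being RSEM's share-out of ambiguous reads. Of 27434 rows, 627 join several genes (6.02% to 6.62% of counts). Limits for a gene at 0 (3 counts) cover counting error only. Between the replicates of a group, counts differed by more than sampling noise (chi-square per degree of freedom of 7.07 to 111), so no library was counted as a duplicate.

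Expected counts were rounded, filtered with filterByExpr (minimum count 10), scaled by TMM and tested in all 6 libraries with edgeR 4.0.16 in R 4.3.3 (quasi-likelihood, robust), with Benjamini-Hochberg adjustment over 13034 genes in each of 3 comparisons. The threshold was an adjusted p of 0.05. Fold changes thus come from counts and levels from the deposited TPM. Alternatives were DESeq2 1.42.0 (the test of the study), RLE size factors, no filter, only the groups compared, a replicate block, each library left out, removal of a loess GC trend (span 0.3, GENCODE transcripts, 96.8% of genes), and limma 3.58.1 on log2(FPKM + 0.1) and log2(FPKM + 1) (mean FPKM 0.5 or more).

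The 10 genes, the 9 lists and the tests were chosen with earlier results of these data known. Of each list the text names every gene called and, for each KD against siNT, the 2 of largest log2 fold change among genes with a mean of at least 1 TPM and non-overlapping libraries. A gene that this rule also names is not reported here. Other genes are named outside this rule, most of them for their level, and were chosen after their values were seen. For LGALS4, KRT19, KRT18, SNAI1, FOXC1 and KLF8 the fold changes are given as well. BEND3, SCAMP5 and ABCC3 are named for their correlation with CDH1. Protein sequences and gene coordinates of the 10 genes were not used here, and the 1 site printed in EPCAM was located by its sequence on GRCh38.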

Additional observations from a re-analysis of the deposited data

Results flagged for a closer look

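Of the 8 genes tested and the 103 others listed and tested, 5 differed between the KDs at an edgeR adjusted p below 0.05. That p was adjusted over all genes tested, of which 1.57% passed (204 of 13034). The log2 difference, HOXB-AS3 KD minus HOXA-AS3 KD, was -1.32 for CDH17, -0.82 for EPCAM, -1.30 for NT5E, -1.58 for CEACAM5 and 1.39 for TGFB2. Against siNT, CDH17 gave 0.96 after HOXA-AS3 KD and -0.36 after HOXB-AS3 KD, EPCAM 0.005 and -0.81, NT5E 0.21 and -1.09, CEACAM5 -0.05 and -1.63, and TGFB2 -0.23 and 1.17. TGFB2 was the gene of the 5 with higher levels in siHOXB-AS3, on 341 and 366 counts against 130 and 109 in siHOXA-AS3. Each of the 5 calls was lost with only the groups compared (adjusted p of 0.0826 for CEACAM5, 0.142 for CDH17 and NT5E, 0.157 for TGFB2 and 0.178 for EPCAM). Each was also lost without any of the siNT or siHOXB-AS3 libraries, with adjusted p-values of 0.143, 0.139, 0.407 and 0.538 for NT5E, 0.157, 0.149, 0.385 and 0.561 for TGFB2 and 0.0783, 0.0727, 0.28 and 0.465 for CEACAM5 (siNT replicates 1 and 2, then siHOXB-AS3 replicates 1 and 2). Each difference was fitted directly between the KD libraries, and the siNT libraries entered it through the common estimate of the spread. The values of both KDs against siNT share the same siNT libraries. With 2 libraries per group no library could be tested as standing apart from its group.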

How the results depend on the processing

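The replicate numbers pair no libraries by their labels, and deviations of same-numbered libraries correlated at -0.347 (siNT with siHOXA-AS3), -0.139 (siNT with siHOXB-AS3) and 0.15 (siHOXA-AS3 with siHOXB-AS3). Of the 10 genes, 0 were called after HOXA-AS3 KD, and 1 by DESeq2, 1 with the GC trend removed and 0 to 4 with a library left out. After HOXB-AS3 KD 0 were called, and 1 by DESeq2, 1 with no filter, 4 with only the groups compared, 3 with the GC trend removed and 0 to 4 with a library left out. Between the KDs 2 were called, and 0 with only the groups compared, 0 with the replicate block, 4 with the GC trend removed, 0 and 1 by limma with pseudocounts of 0.1 and 1, and 0 to 5 with a library left out. The highest counts came without siHOXA-AS3 replicate 1 or siHOXA-AS3 replicate 2, where the lone library is assumed to vary like the other groups. Calls over all genes rose in such fits too, so these counts are not particular to the 10 genes. After HOXB-AS3 KD 2995 of 12830 genes were called with only the groups compared. With the GC trend removed 549, 1903 and 3471 of 12622 genes were called (HOXA-AS3 KD, HOXB-AS3 KD, and between the KDs).

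Over all genes, HOXA-AS3 KD gave 0 calls, against 51 by DESeq2, 24 with no filter, 549 with the GC trend removed and 0 to 4031 with a library left out. HOXB-AS3 KD gave 8, against 347 by DESeq2, 265 with no filter, 2995 with only the groups compared, 0 with the replicate block, 1903 with the GC trend removed, 0 by limma with a pseudocount of 0.1 and 0 to 3035 with a library left out. The KDs against each other gave 204, against 792 by DESeq2, 706 with no filter, 2 with only the groups compared, 10 with the replicate block, 3471 with the GC trend removed, 111 and 125 by limma and 0 to 5027 with a library left out. Of the 103 other listed genes tested, HOXA-AS3 KD gave 0, against 1 by DESeq2, 1 with no filter, 3 with the GC trend removed and 0 to 38 with a library left out. HOXB-AS3 KD gave 1, against 3 by DESeq2, 3 with no filter, 32 with only the groups compared, 0 with the replicate block, 23 with the GC trend removed, 0 by limma with a pseudocount of 0.1 and 0 to 33 with a library left out. The KDs against each other gave 3, against 13 by DESeq2, 5 with RLE size factors, 13 with no filter, 0 with only the groups compared, 0 with the replicate block, 37 with the GC trend removed, 1 and 1 by limma and 0 to 51 with a library left out.

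Of the log2 differences of the named genes, those that changed sign were small. After HOXA-AS3 KD, EPCAM (0.005) was -0.002 in both limma fits and ran from -0.059 to 0.07 with a library left out, with -0.019 without siNT replicate 2 and -0.059 without siHOXA-AS3 replicate 2. With a library left out CTNNB1 ran from -0.035 (without siNT replicate 1) to 0.09, and ESRP1 from -0.054 to 0.338, NT5E from -0.057 to 0.444 and CEACAM5 from -0.134 to 0.029, the changed sign of these last 3 being without siHOXA-AS3 replicate 2. After HOXB-AS3 KD, ZEB1, with 5 to 35 counts a library, ran from -0.435 (without siNT replicate 2) to 1.539 and was -0.119 without siHOXB-AS3 replicate 1. The cause of these shifts was not tested. With 2 libraries per group and so few counts, differences of the low mesenchymal genes were not detectable.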
